A study of Mus musculus with 8 samples.

Results

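Mast cell proteases and receptors were examined in skin of the belly from mice that carried a transgene for hurpin and from wildtype mice. The set held 9 genes of the 18193 with a probe set annotated to a single symbol: Cpa3, Cma1, Mcpt4, Tpsb2 and Tpsab1 (proteases), Mrgprb1, Fcer1a and Ms4a2 (receptors and receptor chains) and Hdc (the enzyme that makes histamine). Every probe set annotated to exactly 1 of these symbols was taken, which gave 12 probe sets, 1 for each of 6 genes and 2 for each of Tpsb2, Ms4a2 and Hdc.

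There were 4 transgenic animals, females 7 and 84 with males 11 and 17. The 3 wildtype animals were males 26 and 28 with female 29. All were 8 months old. Hurpin is the human serpin SERPINB13, which inhibits the lysosomal protease cathepsin L. The promoter of the transgene, the number of transgenic lines and the mouse strain are not given in the sources used here. The level of the human transgene was not read, and 0 probe sets were annotated to the mouse symbol Serpinb13.

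Total RNA of each animal was measured on 1 oligonucleotide array, and that of wildtype 29 on 2, which made 8 arrays. Signal intensity summed to between 34785081 and 37857733 per array, and the number of arrays limits the precision of each comparison. Levels are given as log2 of intensity plus 21.8, so that an intensity of 0 lies at 4.45. Xist, Kdm5d and Eif2s3y matched the labelled sex of all 7 animals. The animals differed in the 3' to 5' ratio of Gapdh, an array control for how far the labelled target reaches towards the 5' end: it was 13.8, 1.45, 4.68 and 17.2 in transgenic 7, 11, 17 and 84, against 1.14, 1.03 and 1.14 in wildtype 26, 28 and 29. They also differed in 6 hair shaft keratins, whose mean level was 13.76, 12.82, 9.84 and 13.70 in the same transgenic animals, against 6.25, 14.24 and 14.28 in the wildtype animals.

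Mast cells are long-lived immune cells of the dermis that store proteases and histamine in granules, bound to heparin. Antigen that cross-links IgE on the high-affinity IgE receptor, or ligands of Mas-related receptors, make them release these granules. Chymases, tryptases and carboxypeptidase A3 then cut peptides and matrix proteins around the cell, and GATA factors are among the known regulators of mast cell genes. In bulk skin RNA, fewer mast cells and less RNA per mast cell cannot be told apart.

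Because several of these genes moved together across animals, the sequences before their annotated starts were compared. RefSeq on GRCm38.p6 gave the 250 bases before the start for 7 of the 9 genes, and Tpsb2 and Tpsab1 had no entry in the table used. The genes Cpa3 (chr3:20242182-20242431), Cma1 (chr14:55944676-55944925) and Mrgprb1 (chr7:48456343-48456592) are shown because their levels correlated most closely with each other, Mcpt4 (chr14:56062311-56062560) as the other chymase, and Fcer1a (chr1:173227230-173227479) because it followed these less closely. All 5 lie on the minus strand and are printed 5' to 3' in the direction of the gene, and capitals mark GATA words and TATA words. GATA words were searched on either strand in the spellings AGATAA and also TGATAA as well as AGATAG and likewise TGATAG, and the TATA word is TATAAA on the coding strand.
Cpa3: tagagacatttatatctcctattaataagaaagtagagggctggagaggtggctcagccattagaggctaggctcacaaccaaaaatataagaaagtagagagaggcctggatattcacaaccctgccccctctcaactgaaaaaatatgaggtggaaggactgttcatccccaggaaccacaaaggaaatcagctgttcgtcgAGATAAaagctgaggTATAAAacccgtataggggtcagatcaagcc
Cma1: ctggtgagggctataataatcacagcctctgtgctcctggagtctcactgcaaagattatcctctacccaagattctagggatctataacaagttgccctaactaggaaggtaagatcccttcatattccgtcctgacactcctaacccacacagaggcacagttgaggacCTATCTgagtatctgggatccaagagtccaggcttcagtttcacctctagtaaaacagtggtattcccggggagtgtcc
Mrgprb1: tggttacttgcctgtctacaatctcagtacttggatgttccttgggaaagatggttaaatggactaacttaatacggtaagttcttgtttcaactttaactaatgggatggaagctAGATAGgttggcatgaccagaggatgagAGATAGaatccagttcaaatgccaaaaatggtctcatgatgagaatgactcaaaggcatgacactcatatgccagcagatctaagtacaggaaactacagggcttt
Mcpt4: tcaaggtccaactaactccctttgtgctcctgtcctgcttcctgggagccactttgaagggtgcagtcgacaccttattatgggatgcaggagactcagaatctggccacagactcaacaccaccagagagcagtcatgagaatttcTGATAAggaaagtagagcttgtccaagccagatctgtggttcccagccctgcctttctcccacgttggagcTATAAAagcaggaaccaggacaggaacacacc
Fcer1a: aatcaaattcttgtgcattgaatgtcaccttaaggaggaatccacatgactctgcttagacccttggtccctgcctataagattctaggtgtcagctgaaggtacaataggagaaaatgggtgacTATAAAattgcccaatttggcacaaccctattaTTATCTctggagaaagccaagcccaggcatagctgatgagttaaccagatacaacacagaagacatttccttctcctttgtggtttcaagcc

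All 7 windows held at least 1 GATA word, against 26.5% of 32851 windows of the same length, and 3 held TATAAA (Cpa3, Mcpt4 and Fcer1a), against 7.59%. The GATA word of Cpa3 began at position -46 and its TATA word at -31, counted from the annotated start. In Mcpt4 the words began at -103 and -32. Cma1 had a GATA word at -79 on the other strand, and Mrgprb1 had 2 on the coding strand, at -134 and -106. In Fcer1a the GATA word at -92 lay on the other strand, downstream of a TATA word at -125. Of the windows not shown, that of Ms4a2 held 3 GATA words, at -224, -37 and -11, and that of Hdc held 1 at -221. These matches describe letters in a window and were not tested for function.

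Transgenic skin was compared with wildtype skin to ask what sets apart the skin of mice carrying the cathepsin L inhibitor. Of the 9 genes, each read from its most abundant probe set, 8 had a higher mean level in transgenic than in wildtype skin, and Tpsb2 did not. Their median log2 difference was 0.71, and Cpa3, Mrgprb1, Tpsab1, Ms4a2 and Hdc lay at or above that median. The median was 0.36 after adjustment for the Gapdh ratio, 0.42 without wildtype 28 and 0.43 without transgenic 17. No gene passed the test, and in no probe set did the transgenic animals separate from the wildtype animals. Over the 12 probe sets 9 lay above 0 and 3 below, with a median of 0.53. For comparison, 49.7% of all 45037 probe sets and 50.2% of those tested lay above 0, and the median over all was -0.0024.

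The test was limma, run on the 27022 probe sets past a filter on mean level, with Benjamini-Hochberg adjustment over all of them and a threshold of 0.05. Of the 12 probe sets 9 passed the filter, covering 8 genes. Hdc and the second probe set of Tpsb2 lay below it. Over all probe sets tested, 4 were called (0.0148%), and 0 of the 9 were. At an unadjusted p under 0.05, Cpa3 alone of the 9 lay higher, where 3.77% of all tested probe sets did, and 0 lay lower, where 7.93% did. Groups without overlap were found in 4.58% of tested probe sets in the higher and 6.71% in the lower direction, and in 0 of the 9.

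Cpa3, the mast cell carboxypeptidase that trims residues from the ends of peptides, measured 11.57, 10.95, 11.88 and 11.55 in transgenic 7, 11, 17 and 84, against 11.13, 10.36 and 10.77 in wildtype 26, 28 and 29. Transgenic 7, 17 and 84 lay above all wildtype animals, and transgenic 11 lay below wildtype 26. Cpa3 averaged 11.49 ± 0.39 in the transgenic group and 10.75 ± 0.39 in the wildtype group (SD, n = 4 and 3), a log2 difference of 0.73 (SE 0.252, 95% interval from 0.16 to 1.31), or 1.66-fold. The limma adjusted p was 0.353. The arrays of wildtype 29 differed by 0.0038 for Cpa3. After adjustment for the Gapdh ratio the difference of Cpa3 was 0.36, and after adjustment for the hair keratin mean it was 0.81. The part of either measure in the result was not tested further.

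Cma1, the alpha-chymase of the mouse, followed Cpa3 closely. It stood at 10.46, 9.65, 10.85 and 10.37 in transgenic 7, 11, 17 and 84, against 10.12, 9.35 and 9.70 in wildtype 26, 28 and 29. The order of the animals was that of Cpa3 except that transgenic 11 also lay below wildtype 29. The difference of Cma1 was 0.61 (SE 0.293, 95% interval from -0.06 to 1.27, limma adjusted p = 0.461), and 0.15 after adjustment for the Gapdh ratio.

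Mcpt4, the chymase of connective tissue mast cells, had a different order. Its levels were 9.84, 10.10, 10.61 and 9.96 in transgenic 7, 11, 17 and 84, against 10.15, 9.35 and 9.52 in wildtype 26, 28 and 29. The 4 transgenic animals lay above wildtype 28 and 29, and 1 of them, transgenic 17, above wildtype 26. The log2 difference of Mcpt4 was 0.45 (95% interval from -0.11 to 1.02), with an adjusted p of 0.505 by limma, and it was 0.67 after adjustment for the Gapdh ratio. The arrays of wildtype 29 differed by 0.32 for this gene.

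Cma1 and Mcpt4 lie in a cluster of granule protease genes on chromosome 14, in the RefSeq order Cma1, Cma2, Mcpt1, Mcpt2, Mcpt9, Mcpt4, Mcpt8 and Ctsg, with 4 coding genes between them. The other genes of the cluster lay below the level filter. Mcpt1 and Mcpt2, chymases of mucosal mast cells, ranged from 5.55 to 6.14 and from 5.17 to 6.65 in transgenic skin, against 4.88 to 5.66 and 5.03 to 5.79 in wildtype skin. A probe set shared by Cma2 and Mcpt9 ranged from 4.96 to 6.81 in transgenic and from 5.80 to 6.08 in wildtype animals. Ctsg, which encodes cathepsin G, lay between 5.07 and 6.97 in transgenic and between 4.93 and 5.999 in wildtype skin. Mcpt8, the basophil protease of the cluster, stayed near the floor, at 4.66 to 5.09 in transgenic and 4.84 to 4.95 in wildtype animals.

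**Figure D1:**
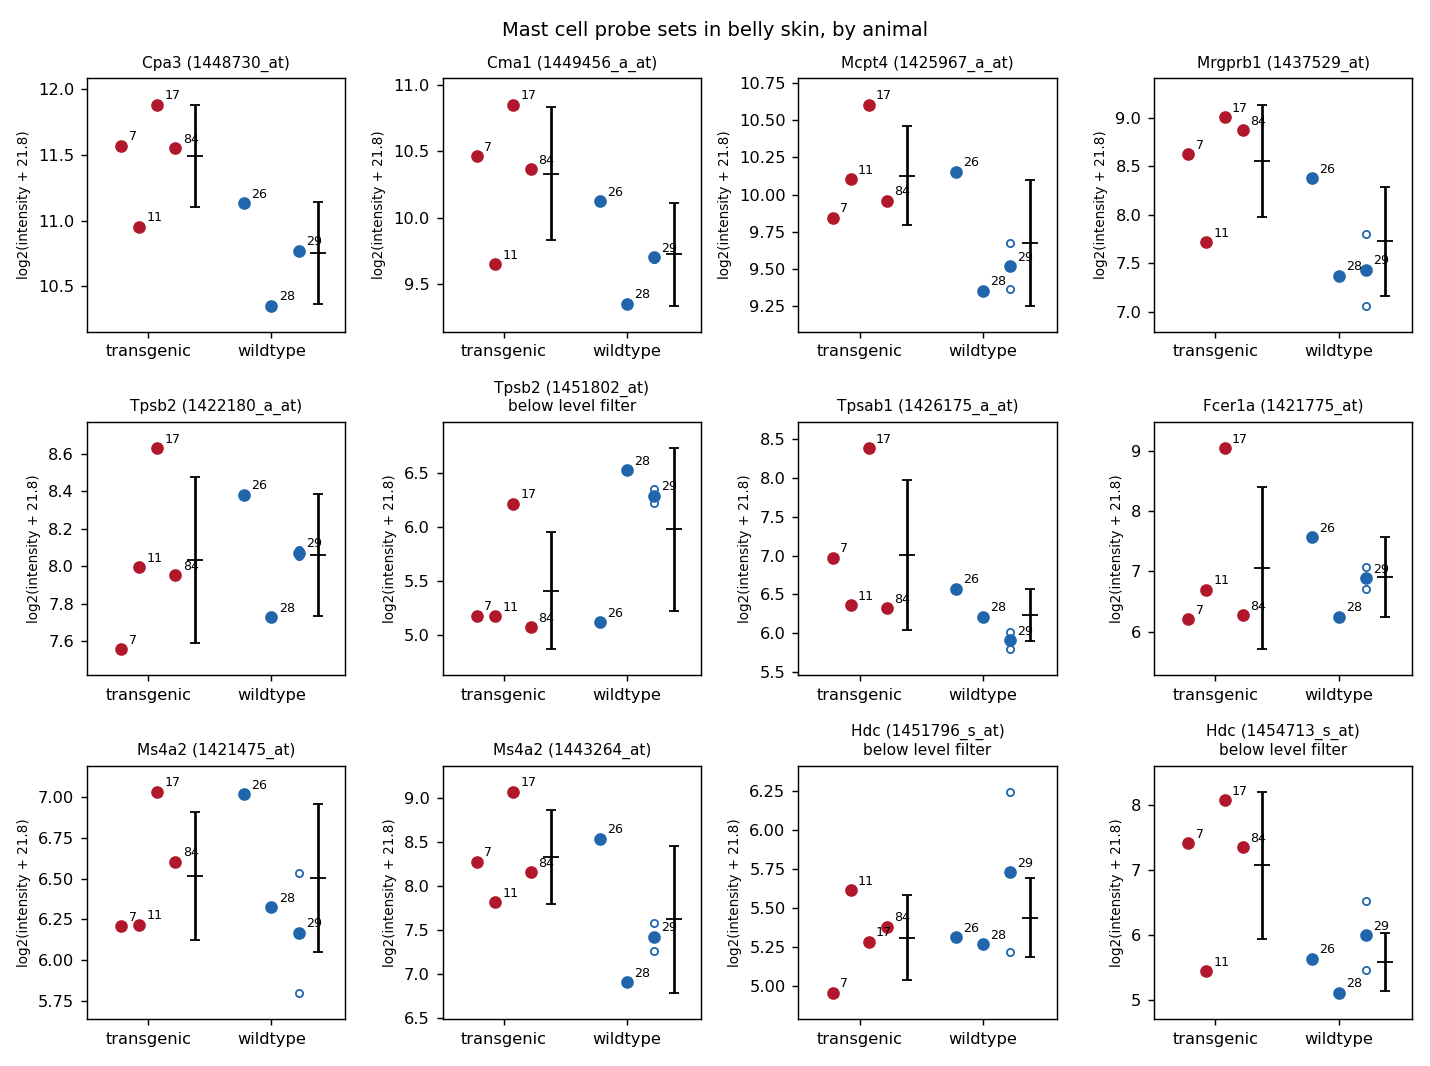
Level of each of the 12 probe sets by animal, as log2 of intensity plus 21.8, with transgenic animals in red and wildtype animals in blue. Filled points are animals, open points the arrays of wildtype 29, and bars the mean ± SD of the group. The groups overlap in each of the 12 panels, and transgenic 17 is the highest animal in the panels of Cpa3, Cma1, Mcpt4 and Mrgprb1.

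The tryptases, trypsin-like proteases that are stored as tetramers with heparin, gave a difference near 0 for Tpsb2 and above 0 for Tpsab1, neither called. Tpsb2 stood at 7.56, 7.99, 8.63 and 7.95 in transgenic 7, 11, 17 and 84, against 8.38, 7.73 and 8.07 in wildtype 26, 28 and 29. Its groups averaged 8.03 ± 0.44 and 8.06 ± 0.33 (SD, n = 4 transgenic and 3 wildtype), a difference of -0.03 with a 95% interval from -0.66 to 0.61 (limma adjusted p = 0.979). That interval holds a difference as large as the one of Mcpt4 in either direction. The second probe set of Tpsb2 was below the filter, at 5.18, 5.18, 6.22 and 5.07 in transgenic 7, 11, 17 and 84, against 5.13, 6.53 and 6.29 in wildtype 26, 28 and 29, and its difference was -0.57.

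Tpsab1 measured 6.97, 6.36, 8.38 and 6.32 in transgenic 7, 11, 17 and 84, against 6.57, 6.22 and 5.91 in wildtype 26, 28 and 29. Transgenic 17 stood 1.81 above wildtype 26, and transgenic 11 and 84 lay below wildtype 26. The difference of Tpsab1 was 0.78 (SE 0.500, 95% interval from -0.36 to 1.91, limma adjusted p = 0.565), and without transgenic 17 it was 0.32. With the Gapdh ratio in the model it was 0.85. Tpsab1 and Tpsb2 are neighbours on chromosome 17 with 0 coding genes between them, and RefSeq annotates Tpsab1 of this assembly as a transcribed pseudogene. The genes are close relatives, so how far their probe sets read each other's transcript is uncertain.

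Among the receptors Mrgprb1, a Mas-related G protein-coupled receptor, had the largest difference of the 9 probe sets tested. It measured 8.62, 7.72, 9.01 and 8.87 in transgenic 7, 11, 17 and 84, against 8.38, 7.38 and 7.43 in wildtype 26, 28 and 29. As with Cpa3, transgenic 7, 17 and 84 lay above all wildtype animals and transgenic 11 lay below wildtype 26. The averages of Mrgprb1 were 8.56 ± 0.58 in the transgenic group and 7.73 ± 0.56 in the wildtype group (SD, n = 4 and 3), a difference of 0.83 (SE 0.365, 95% interval from -0.0018 to 1.65, limma adjusted p = 0.427). The arrays of wildtype 29 differed by 0.73 for this gene, and after adjustment for the Gapdh ratio the difference between the groups was 0.15.

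Ms4a2 and Fcer1a encode chains of the high-affinity IgE receptor: the alpha chain Fcer1a binds IgE, and the beta chain Ms4a2 amplifies the signal. The more abundant probe set of Ms4a2 stood at 8.28, 7.82, 9.08 and 8.16 in transgenic 7, 11, 17 and 84, against 8.54, 6.90 and 7.42 in wildtype 26, 28 and 29. Each transgenic animal lay above wildtype 28 and 29, and 1 lay above wildtype 26. This probe set of Ms4a2 had a difference of 0.71 (SE 0.418, 95% interval from -0.24 to 1.66, limma adjusted p = 0.528), or 0.54 after adjustment for the Gapdh ratio. The other one had 6.21, 6.22, 7.03 and 6.60 in transgenic 7, 11, 17 and 84, against 7.02, 6.33 and 6.17 in wildtype 26, 28 and 29, and a difference of 0.01 (limma adjusted p = 0.993), or -0.06 after adjustment for the Gapdh ratio.

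Fcer1a measured 6.21, 6.70, 9.04 and 6.27 in transgenic 7, 11, 17 and 84, against 7.57, 6.25 and 6.89 in wildtype 26, 28 and 29. Transgenic 17 stood far above the other 6 animals, and transgenic 7 was the lowest animal. The group averages were 7.06 ± 1.34 in transgenic animals and 6.90 ± 0.66 in wildtype ones (SD, n = 4 and 3), and the difference was 0.15 with a 95% interval from -1.39 to 1.69 (limma adjusted p = 0.951). Without transgenic 17 the difference of Fcer1a was -0.51, and after adjustment for the Gapdh ratio it was 0.80. Fcer1g, the gamma chain that Fcer1a and Ms4a2 share the receptor with and that macrophages also express, had a difference of 0.13 (10.75 ± 0.33 in transgenic animals and 10.62 ± 0.50 in wildtype ones, SD, n = 4 and 3).

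Hdc, the histidine decarboxylase that makes histamine, had the largest difference of the 9 genes, from a probe set below the level filter. Its levels were 7.41, 5.44, 8.07 and 7.35 in transgenic 7, 11, 17 and 84, against 5.63, 5.10 and 5.99 in wildtype 26, 28 and 29. Transgenic 11 lay within the wildtype range and the other transgenic animals above it. The difference was 1.49, and the limma adjusted p was 0.478 in a fit without the level filter. The arrays of wildtype 29 differed by 1.06 for Hdc, more than for any other of the 12 probe sets. The difference was 0.28 after adjustment for the Gapdh ratio. The second probe set of Hdc ranged from 4.95 to 5.61 in transgenic and from 5.27 to 5.73 in wildtype skin.

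**Figure D2:**
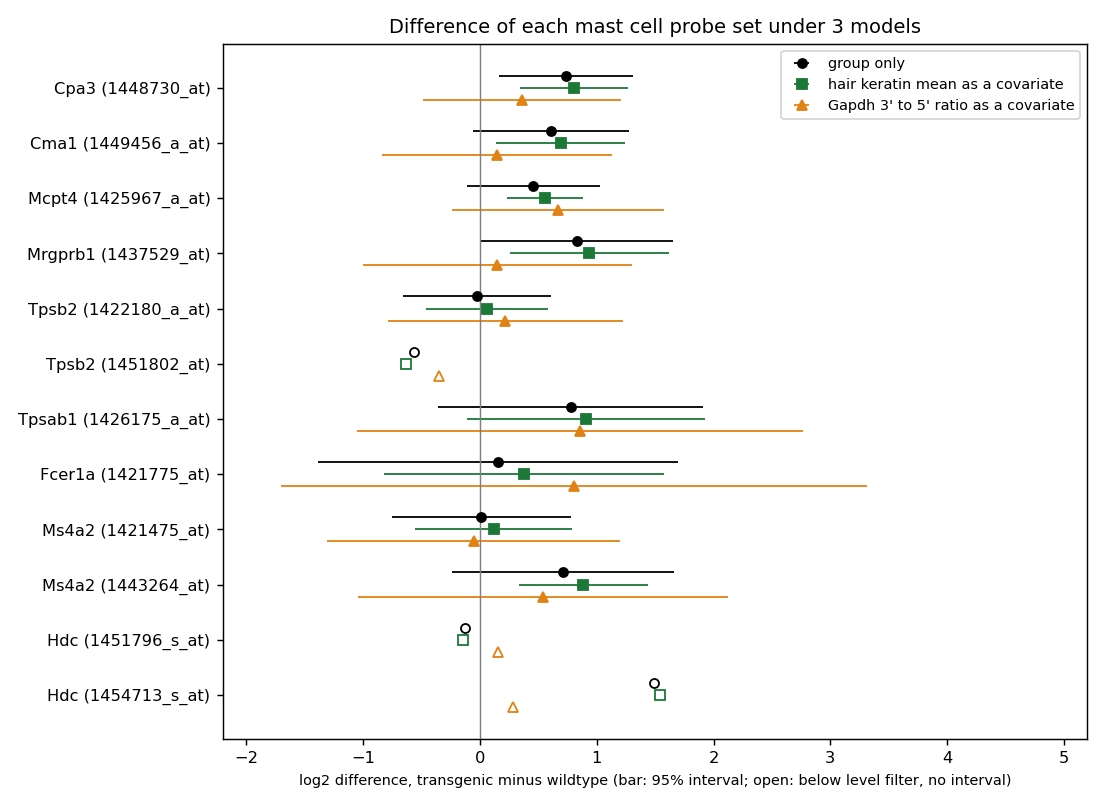
Log2 difference, transgenic minus wildtype, of the 12 probe sets with group alone in the model, after adjustment for the hair keratin mean and adjusted for the 3' to 5' ratio of Gapdh. Bars are 95% intervals of the limma fit, and open points are probe sets below the level filter, shown with no interval. For Cpa3, Cma1, Mrgprb1 and Hdc the point moves towards 0 with the Gapdh ratio in the model, to 0.36, 0.15, 0.15 and 0.28. For Mcpt4, Tpsab1, Fcer1a and the more abundant probe set of Tpsb2 it moves upward, to 0.67, 0.85, 0.80 and 0.22. Intervals in that model are wide, from -0.49 to 1.21 for Cpa3 and from -1.70 to 3.31 for Fcer1a.

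The spread among animals of 1 group was wide and ran the same way in most genes. Transgenic 17 had the highest level of all 7 animals in 9 of the 9 genes. Wildtype 26 was the highest wildtype animal in 8 of them, the exception being Hdc, and transgenic 17 lay above wildtype 26 in 9 of 9. Wildtype 28 was the lowest of all animals in 6 genes. The arrays of wildtype 29 differed by a median of 0.31 over the 12 probe sets.

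The mean standardised level of the 8 genes past the filter was 0.06, -0.33, 1.59 and 0.14 SD units in transgenic 7, 11, 17 and 84, against 0.36, -1.15 and -0.67 in wildtype 26, 28 and 29. Transgenic 17 and wildtype 26, the highest of their groups in this profile, had the lowest hair keratin means of their groups. Over the 7 animals the profile had Pearson r = -0.60 with the hair keratin mean and r = 0.44 with the log2 Gapdh ratio, given as descriptions since the animals fall into 2 groups. After adjustment for the hair keratin mean, chosen after seeing the data, the difference was 0.88 for the more abundant probe set of Ms4a2 (SE 0.243), 0.55 for Mcpt4, 0.69 for Cma1, 0.94 for Mrgprb1, 0.91 for Tpsab1 and 0.38 for Fcer1a. It was 0.06 for Tpsb2 and 0.12 for the other probe set of Ms4a2. In that fit 5 of the 9 probe sets had an unadjusted p under 0.05 by limma, as did 4697 of all 27022 tested. With group alone these counts were 1 of the 9 and 3161 of all. Of the 9 probe sets 0 passed after Benjamini-Hochberg adjustment in the hair keratin fit (smallest adjusted p = 0.153, for Cpa3). After adjustment for the Gapdh ratio 0 of the 9 had an unadjusted p under 0.05, against 851 of all 27022 tested. The Gapdh ratio was higher in each transgenic animal than in the wildtype animals, so the model could separate it from the group only through its spread within the groups.

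**Figure D3:**
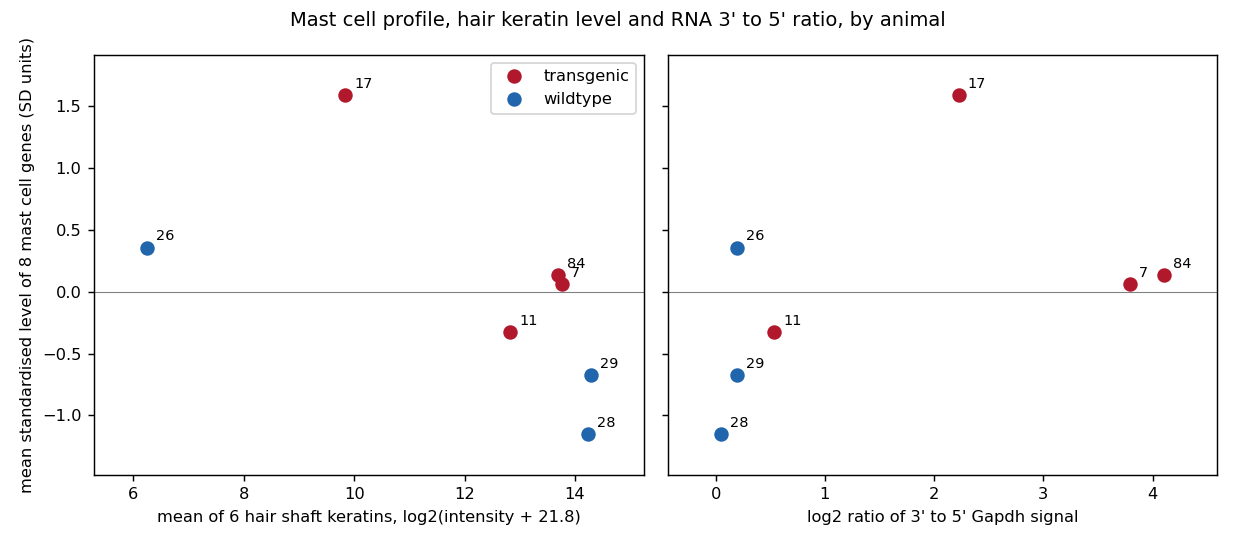
Mean standardised level of 8 mast cell genes, in SD units, for each of the 7 animals against the mean of 6 hair shaft keratins (left) and the log2 ratio of 3' to 5' Gapdh signal (right). Transgenic animals are red and wildtype animals blue. Transgenic 17, at 1.59, stands above the others, and wildtype 28 is lowest at -1.15.

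The genes did not all follow the same pattern across animals. Over the 28 pairs of the 8 genes the median Pearson r was 0.76, across 7 animals that share tissue and array scaling but differ in the Gapdh ratio. Cpa3 and Cma1 had r = 0.98, and Mrgprb1 had r = 0.95 with Cpa3 and 0.96 with Cma1. Ms4a2 had r = 0.92 with Cma1 and with Mcpt4. Tpsb2 and Fcer1a had r = 0.93 with each other, but 0.37 and 0.48 with Cpa3 and 0.35 and 0.42 with Mrgprb1. In Tpsb2 and Fcer1a, transgenic 7 was the lowest animal, whereas in Cpa3, Cma1 and Mrgprb1 it lay above all wildtype animals. These values are descriptions over 7 animals and were not tested.

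**Figure D4:**
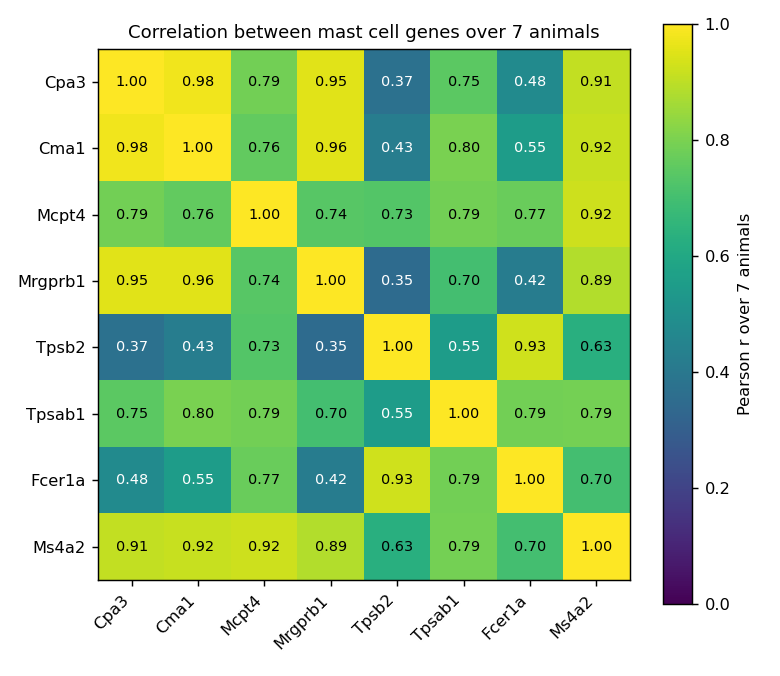
Pearson r between the log2 levels of the 8 mast cell genes past the level filter, over 7 animals. The block of Cpa3, Cma1 and Mrgprb1 lies between 0.95 and 0.98, and the lowest pair, Mrgprb1 with Tpsb2, has 0.35.

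The genes most like the mean profile, by Pearson r over the 7 animals among all named probe sets past the filter, were Mgst2 (0.986), Faim (0.986), Ubxn4 (0.984), Mospd2 (0.983), Mocs2 (0.981), Ino80c (0.981), Prxl2a (0.977), Mcf2l (0.976), Apmap (0.976) and Zfp54 (0.974). Their own differences between transgenic and wildtype skin ranged from 0.13 for Ino80c to 0.65 for Prxl2a, and none was called by limma. Prxl2a measured 11.04, 10.72, 11.93 and 11.32 in transgenic 7, 11, 17 and 84, against 11.25, 10.17 and 10.40 in wildtype 26, 28 and 29.

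The comparison held both sexes, and a difference of the response between females and males was called for none of the 8 genes tested. Hdc, below the level filter, was not tested for it. The interaction of group and sex was called for 0 of 27022 probe sets (0%), with 772 at an unadjusted p under 0.05. For Fcer1a it was 1.61 with a 95% interval from -1.29 to 4.51, and for Mrgprb1 -0.83 with an interval from -2.66 to 1.01. The limma adjusted p was 0.9998 for each of the 9 tested probe sets. The single wildtype female limits this comparison.

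Other genes of mast cell biology were read from 4 further lists, none of whose members passed the adjusted test. Of 15 genes for mediators and storage 12 had a probe set and 7 of these 12 lay above 0, with a median difference of 0.29. Of 7 tested, 0 were higher in transgenic skin with an unadjusted p under 0.05, and 1, Ltc4s, was lower. The shares over all tested probe sets were 3.77% higher and 7.93% lower. Ltc4s, the synthase of leukotriene C, measured 6.88, 7.57, 7.73 and 6.91 in transgenic 7, 11, 17 and 84, against 8.497, 7.73 and 8.36 in wildtype 26, 28 and 29. The highest transgenic value was just below the lowest wildtype one, and the difference was -0.92 (SE 0.300, limma adjusted p = 0.340). Srgn, the core protein that carries the granule heparin chains, had 0.30, Ndst2, which sulfates heparin, -0.45, and Tph1, which makes serotonin, 0.53, with adjusted p of 0.497 or more. Ltc4s and Ndst2 lay lower without overlap of the groups, as did 6.71% of all tested probe sets. After adjustment for the Gapdh ratio the difference was -0.38 for Ltc4s, -0.02 for Srgn, 0.05 for Ndst2 and 0.40 for Tph1.

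Among 17 other receptors and lineage factors, 14 had a probe set and 10 of these lay above 0, with a median of 0.21. Of 11 tested, each by its most abundant probe set, 0 had an unadjusted p under 0.05 in either direction. Among all tested probe sets 3.77% were higher and 7.93% lower at that threshold. Kit, the stem cell factor receptor of mast cells and melanocytes, gave 0.41 from its more abundant probe set (9.35 ± 0.51 in transgenic animals and 8.94 ± 0.22 in wildtype ones, SD, n = 4 and 3, limma adjusted p = 0.584). The other Kit probe set, below the filter, stood at 5.26, 4.91, 6.66 and 4.98 in transgenic 7, 11, 17 and 84, against 6.96, 7.00 and 7.11 in wildtype 26, 28 and 29. Its difference was -1.57, and the groups did not overlap, as for 6.71% of tested probe sets in the lower direction. After adjustment for the Gapdh ratio the more abundant probe set of Kit gave -0.16 and the other -1.49. Gata1 and Gata2, transcription factors of the mast cell lineage, gave 0.42 and 0.28, and the other Gata2 probe set gave -0.32. With the Gapdh ratio in the model Gata1 gave 0.59 and the Gata2 probe sets -0.10 and -0.96. Mitf, a factor of mast cells and melanocytes, gave 0.05, and the other probe set 0.23, or -0.56 and 0.74 with the ratio in the model. Enpp3, a surface ectoenzyme, gave 0.64 from its most abundant probe set, or -0.29 with the ratio in the model. Its other probe sets ran from -0.16 to 0.50. The Enpp3 probe set at 0.50 had an unadjusted p of 0.0498 by limma (adjusted p = 0.427) and gave 0.55 with the ratio in the model. Csf2rb, the common beta chain of cytokine receptors, gave 0.47 from one and -0.52 from the other.

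Signalling genes downstream of the IgE receptor went both ways. Of 19 genes 18 had a probe set, 7 of which lay above 0, with a median of -0.07. At an unadjusted p under 0.05, 2 of 17 tested were higher in transgenic skin and 3 lower. Over all tested probe sets these shares were 3.77% and 7.93%. Plcg2, a phospholipase C, had a difference of 0.79 (SE 0.243, limma adjusted p = 0.331), or 1.04 with the Gapdh ratio in the model. Gab2, an adaptor of Fyn signalling, measured 9.43, 9.52, 9.49 and 9.19 in transgenic 7, 11, 17 and 84, against 9.16, 8.17 and 8.75 in wildtype 26, 28 and 29. The Gab2 groups did not overlap, as for 4.58% of tested probe sets in the higher direction. The difference was 0.71, and the other Gab2 probe sets gave 0.13 and -0.03, or 0.86, -0.09 and 0.20 with the Gapdh ratio in the model. The kinase Fyn had -0.44 (10.03 ± 0.05 in transgenic animals and 10.47 ± 0.03 in wildtype ones, SD, n = 4 and 3, limma adjusted p = 0.319) from its more abundant probe set and 0.31 from the other. With the Gapdh ratio in the model the Fyn probe sets gave -0.40 and 0.09. Stim1, the calcium sensor of the endoplasmic reticulum, had -2.01 and, after adjustment for the Gapdh ratio, 0.24, and the other Stim1 probe set gave -0.16 and 0.25. The more abundant probe sets of Fyn and Stim1 lay lower without overlap of the groups, as did 6.71% of all tested probe sets.

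The list of growth factors, activators and targets held 16 genes, 14 with a probe set, of which 7 lay above 0, with a median of -0.02. Of 9 tested, each by its most abundant probe set, 1 lay higher and 1 lower when the unadjusted p had to be under 0.05. These were Hnmt, which inactivates histamine, at 0.52 (limma adjusted p = 0.411), and Agt, which encodes the precursor of angiotensin, a chymase substrate, at -1.02 (limma adjusted p = 0.328). At that threshold 3.77% of all tested probe sets lay higher and 7.93% lower. Agt lay lower without overlap of the groups, as did 6.71% of all tested probe sets. Il33 and Tslp, alarmins of keratinocytes that activate mast cells, gave 0.69 and 0.56. After adjustment for the Gapdh ratio they gave -0.15 and -0.06, Hnmt gave 0.27 and Agt gave -1.26. Kitl, the stem cell factor, had -0.07 in its most abundant probe set, and -0.66, -0.08 and -0.25 in the others. The probe set at -0.66 lay lower without overlap of the groups, with an unadjusted p of 0.0397 by limma (adjusted p = 0.409). With the ratio in the model the Kitl probe sets gave, in the same order, -0.61, and -0.37, 0.41 and -0.59.

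**Figure D5:**
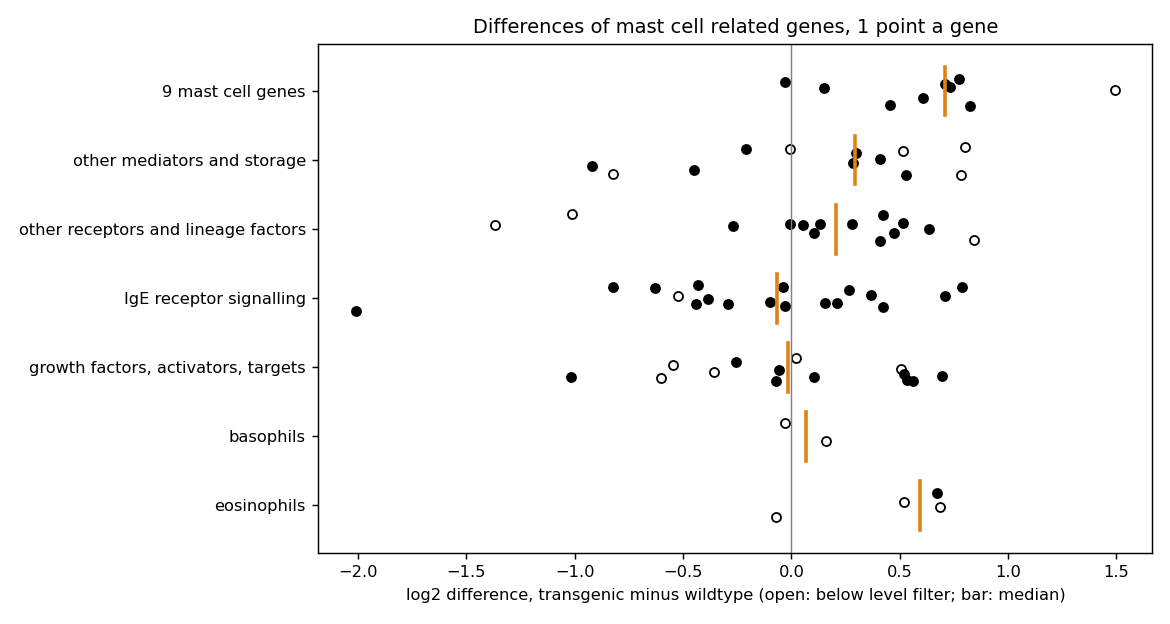
Log2 difference, transgenic minus wildtype, of the 9 mast cell genes, the genes of 4 further mast cell lists, and basophil and eosinophil markers, 1 point a gene. Open points are genes below the level filter, and the bar is the median of the list. The medians run from -0.07 for IgE receptor signalling to 0.71 for the 9 mast cell genes.

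Markers of other cell types were summed as intensity over the list. The 9 mast cell genes summed to 6437, 4611, 9565 and 6435 in transgenic 7, 11, 17 and 84, against 5676, 3103 and 3975 in wildtype 26, 28 and 29. The basophil markers Mcpt8 and Cd200r3 were near the floor, with sums from 9.40 to 29.1 in transgenic and from 10 to 20 in wildtype animals, and 0 of 2 past the filter. Eosinophil markers summed to between 264 and 299 in transgenic and between 123 and 210 in wildtype animals, with no overlap. Of these 4 markers 3 lay above 0, and Siglecf, the 1 past the filter, had a difference of 0.67 (limma adjusted p = 0.356). Adipocyte markers also did not overlap, at 44251 to 58961 in transgenic and 37052 to 40651 in wildtype animals, with 4 of 4 measured markers above 0. Among single tested probe sets 4.58% lay higher without overlap, and the sums were not tested.

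Macrophage markers ranged from 38820.3 to 53954 in transgenic and from 26942 to 61783 in wildtype animals, highest in transgenic 17 and wildtype 26 within their groups, as for the mast cell genes. The same 2 animals were the highest of their groups for T and NK cell, endothelial, keratinocyte and fibroblast markers. In each of those 5 lists wildtype 26 stood above transgenic 17, whereas for the mast cell genes it stood below. Neutrophil markers were like the mast cell genes in this, highest of their groups in transgenic 17 at 3670 and wildtype 26 at 868. Their order differed otherwise: transgenic 11 stood at 3185 and transgenic 7 and 84 at 478 and 438, whereas transgenic 11 had the lowest transgenic mast cell sum. Of the 5 neutrophil markers 2 passed the filter. Hair shaft markers ranged from 6308 to 99674 in transgenic and from 373 to 124611 in wildtype animals. The sums of neutrophil, B and plasma cell, melanocyte and skeletal muscle markers overlapped between the groups. The part of these cell types in the mast cell differences was not tested.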

How the data were processed

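Total RNA from skin of the belly of 4 transgenic and 3 wildtype mice was hybridised to mouse expression arrays after one-cycle target labelling, per the labels, and wildtype 29 was on 2 arrays. Intensity was deposited on a linear scale as the signal of MAS5, per the submitters' processing notes, which give no version. A mean of 500.003 on every array, after leaving out the lowest and highest 2%, shows that arrays had been scaled to a common mean. No detection calls were used. Of 45101 probe sets 64 were array controls, and of the rest 34945 had 1 gene symbol in the platform annotation.

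A pseudocount of 21.8, the 20th percentile of the table, was added before taking log2, so differences of low probe sets are understated. The arrays of wildtype 29 were averaged. Probe sets with a mean below the 40th percentile (6.45) were not tested, which left 27022. The test was limma 3.58.1 (R 4.3.3), 2-sided, with group as the only term and a trended empirical Bayes prior, and Benjamini-Hochberg adjustment, and the interaction of group and sex likewise. The members and lists were chosen with earlier results of these data known. The most abundant probe set stands for a gene. From each of 4 further lists up to 4 tested genes with the smallest unadjusted p were named, with Kit, Gata2, Mitf, Fcer1g and Kitl, and the 10 genes most correlated with the mean standardised profile. Siglecf and the genes of the chymase cluster were named after their values were seen. Words were searched in RefSeq windows of GRCm38.p6. The script was tested on simulated data. Animals were separate, and array number limits the precision. Alternatives covered normalization, pseudocount, filter, empirical Bayes settings, covariates, single arrays of wildtype 29 and animals left out. Figures used Python 3.11.15 and matplotlib 3.10.9.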

Additional observations from a re-analysis of the deposited data

Results flagged for a closer look

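Levels of 42 probe sets were checked for a transgenic animal that stood apart from the other transgenic animals, by its gap to the nearest one as a share of the range of the group, and 3 passed the 95% limit. Chance alone flags about 1 in 20 such groups, and the wildtype group of 3 was too small to check. In each case the animal was transgenic 17. For Ino80c it stood at 10.002, against 9.74 to 9.76 in the others (share 0.945). For the second probe set of Tpsb2, below the level filter, it stood at 6.22, against 5.07 to 5.18 (share 0.9065). For Fcer1g it stood at 11.24, against 10.51 to 10.63 (share 0.8344). The Ino80c probe set had been chosen for its likeness to the mast cell profile, in which transgenic 17 is highest.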

How the results depend on the processing

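The count of called mast cell probe sets was 0 in all 21 alternatives, and the median over the 9 genes (0.71) stayed above 0 in all 20 that gave one, at 0.36 adjusted for the Gapdh ratio and from 0.42 (without wildtype 28) to 0.92 (without wildtype 26) with 1 animal left out, including 0.43 without transgenic 17. The smallest adjusted p, 0.0909 for Cpa3, came without transgenic 11. Cpa3 ran from 0.36 to 0.92, Cma1 from 0.15 to 0.84, Mcpt4 from 0.29 to 0.69, Mrgprb1 from 0.15 to 1.15, Tpsab1 from 0.32 to 1.14, Ms4a2 from 0.35 to 1.17 and Hdc from 0.28 to 2.03, with none below 0. Tpsb2, near 0 in the comparison, turned above 0 in 9 alternatives: 0.065 with quantile and 0.062 with cyclic loess normalization, 0.028 adjusted for sex, 0.22 for the Gapdh ratio and 0.059 for the hair keratin mean, and 0.25 without transgenic 7 and 84 together. With 1 animal left out it ran from -0.23 to 0.13, with 0.13 without transgenic 7, 0.00037 without transgenic 84 and 0.13 without wildtype 26. Fcer1a turned to -0.51 without transgenic 17 and -0.18 without wildtype 28, and reached 0.48 without wildtype 26, 0.80 with the Gapdh ratio and 0.97 without transgenic 7 and 84 together. The cause of these turns was not tested. At an unadjusted p under 0.05 limma gave 5 of the mast cell probe sets without wildtype 26, 3 without transgenic 11 and 0 without wildtype 28, against 1 with all animals. Over all 27022 probe sets tested it gave 4233 without wildtype 26, 4842 without transgenic 11 and 1652 without wildtype 28, against 3161. The interaction count was 0 in both alternatives. The hair keratin covariate was chosen after seeing the data. No paired analysis was possible because the labels number single animals and the groups share no number. Signal near the floor limits what Hdc, Tpsab1, Fcer1a and the second probe sets of Tpsb2 and Ms4a2 can show.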
